A study of Rattus norvegicus with 47 samples.

Results

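The cytosolic ribosomal protein genes were followed in whole kidney RNA from rats that carried metal pellets for 12 months. The genes were chosen by name alone: symbols made of Rpl or Rps and a number, with an a or x where the name has one, together with Rpsa, Rplp0, Rplp1 and Rplp2. This rule found 73 of the 22525 genes in the count table, of which 29 encode proteins of the small ribosomal subunit and 44 encode proteins of the large subunit. Numbered copies such as Rpl31l4 were left out. The study compared the pellet metals lead (Pb), depleted uranium (DU), aluminium (Al), cobalt (Co) and tungsten (W) with tantalum (Ta), a metal it treated as inert. There were 8 kidney libraries in each group except Pb, which had 7, giving 47 libraries. Every rat carried a pellet, so the reference is a Ta pellet and not an animal without an implant. Strain, sex and age are not given in the labels used here, and nothing in the labels says that libraries came from separate animals beyond their numbering, so p-values measure the spread between these libraries.

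Ribosomes are built from ribosomal RNA and a fixed set of proteins, which cells make in matched amounts. The small subunit holds the messenger RNA and reads its codons, and the large subunit joins the amino acids and passes the new chain through its exit tunnel. Messenger RNAs of ribosomal proteins carry a short run of pyrimidines at their 5′ end, the terminal oligopyrimidine (TOP) tract, through which growth signals from mTOR adjust their translation together. The kidney, whose tubule cells are rich in mitochondria and carriers, makes these messages at high levels at all times.

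The start of several genes shows that tract, and 6 windows are printed because their genes carry the results below: 3 genes with large changes and a tract, 1 with a large change and no tract, and 2 with smaller changes. Each window runs from 15 bases before to 15 bases after the annotated start in RefSeq (GRCr8), on the strand of the gene, and capitals mark a run of at least 6 pyrimidines that begins with C.
Rpl38: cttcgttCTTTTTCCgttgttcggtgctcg
Rps28: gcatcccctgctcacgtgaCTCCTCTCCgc
Rps21: gaacgagccaCTTCCTTTCTgtgttctccg
Rpl41: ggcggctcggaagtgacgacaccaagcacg
Rplp0: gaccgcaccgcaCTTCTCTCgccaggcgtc
Rpl12: ggagcaacatccgtCTTTTCggctttcggt
The windows lie at chr10:100200420-100200449 (plus strand, Rpl38), chr7:15311319-15311348 (minus, Rps28), chr3:187724023-187724052 (plus, Rps21), chr7:1563483-1563512 (minus, Rpl41), chr12:46718376-46718405 (minus, Rplp0) and chr3:36661925-36661954 (plus, Rpl12). A start window was found for 58 of the 73 genes, and 44 of these 58 (75.9%) held such a run, against 23.2% of 27399 other genes. The letters CTTTCC, which can lie inside such a run, stood in 24.1% of the 58 windows and in 1.39% of the others. Its reverse complement GGAAAG stood in 1.72% and 1.47%. A match is a description of the letters and says nothing of translation, and RefSeq starts may differ from the starts used in kidney. The rule for the run was set after the windows were seen, so its share among the 58 is a description and no test.

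Library totals ran from 21604755 to 35775818 counts, so counting error was small for nearly all of the genes. The mitochondrially encoded genes took between 11.8% and 26.5% of the counts, lowest in DU replicates 6 and 5. The tissue label fits its markers: Umod, the thick ascending limb protein uromodulin, averaged 3893 ± 1197 CPM (counts scaled to the library's total; SD, n = 8) in the Ta kidneys, and Aqp2, the collecting duct water channel, averaged 418 ± 78.8 CPM. DU replicate 6 stood apart, with 484 CPM of Umod, 56.4 CPM of Aqp2 and the lowest mean of the proximal tubule markers among the DU libraries. The counts of ribosomal protein genes past the test and the leading DU changes are therefore also given without it. CPM here are scaled by TMM factors. Fold changes are log2 values from a single edgeR quasi-likelihood fit to all 47 libraries, adjusted by Benjamini and Hochberg over the 15868 genes tested, with a threshold of 0.05 and a standard error (SE) beside each.

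All 73 genes passed the filter on low counts, and the groups stood in a nearly fixed order. Ta had the lowest mean of the 6 groups for 73 of 73 genes, W the second lowest for 73 and Pb the highest for 73, while Co, Al and DU changed places from gene to gene. The genes together took a median of 2.44% of all counts in the Ta kidneys (2.07% to 3.23%). They took a median of 2.698% in W (2.29% to 3.35%), 3.06% in Co (2.58% to 3.91%) and 3.30% in Al (2.99% to 4.80%). They took 3.49% in DU (3.31% to 5.73%) and 4.15% in Pb (3.78% to 5.62%). All 7 Pb libraries and all 8 DU libraries lay above every Ta library, against 6 of 8 in Al, 2 of 8 in Co and 1 of 8 in W. Ta replicate 4 sets the top of the Ta range, and above the other 7 Ta libraries lay 8 of 8 in Al, 7 of 8 in Co and 5 of 8 in W. In bulk tissue a change in the number of cells of a type and a change in RNA per cell cannot be told apart.

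**Figure D1:**
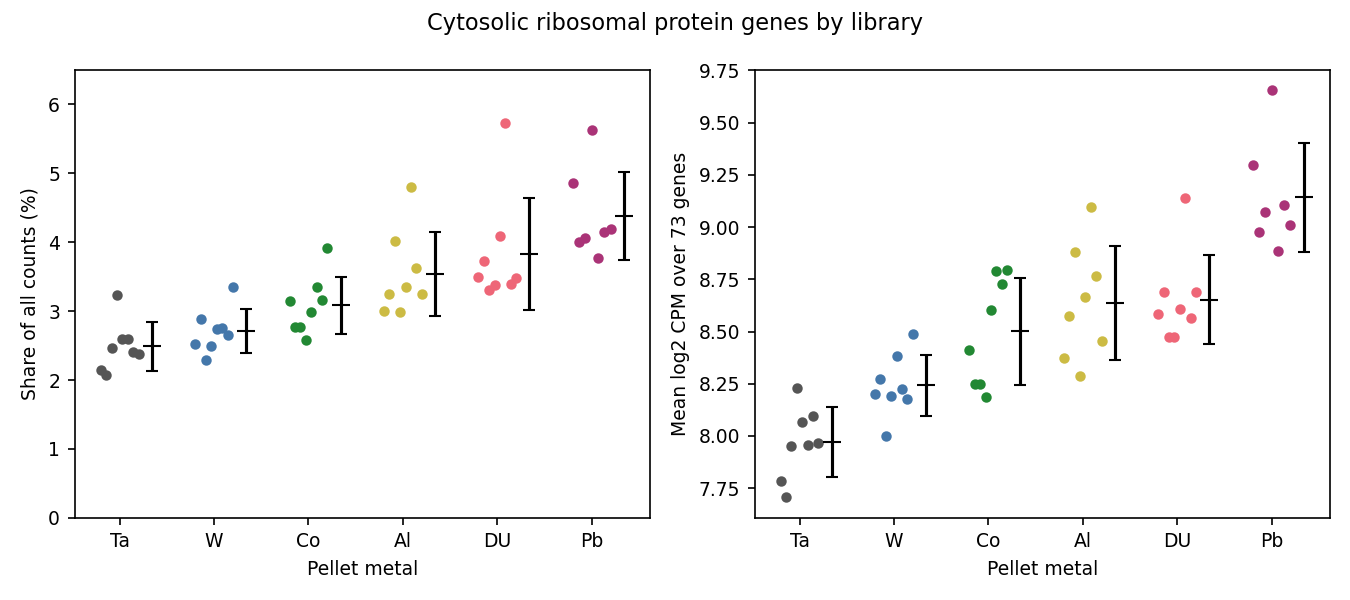
Share of all counts taken by the 73 genes (left, %) and their mean log2 CPM (right) in each of the 47 libraries, grouped by pellet metal, with the mean and SD of each group as a cross and bar. Ta libraries lie between 2.07% and 3.23% on the left and the 7 Pb libraries between 3.78% and 5.62%; DU replicate 6 is highest of all at 5.73%.

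In a test for any difference among the 6 groups, 72 of the 73 genes passed, against 58.4% of all genes tested. The smallest adjusted p was that of Rps28 (1.32e-14, edgeR quasi-likelihood test), a protein near the messenger RNA exit of the small subunit. The exception was Rpl17, a protein beside the exit tunnel (adjusted p = 0.0796). Against Ta, 5 genes passed in all 5 comparisons, 62 passed in 4, 3 passed in 3, 1 passed in 2 and 2 passed in 1. All 73 estimates were above 0 in each of the 5 comparisons, and none of the 73 was lower than Ta past the test in any of them. The 5 comparisons share the same 8 Ta libraries. Genes of small proteins outside the ribosome were higher in the same groups and those of very large proteins lower. With the balance of these genes in each library as a covariate, described further on, 25 of the 73 passed against Ta in DU, 4 in Al, 1 in Pb, 0 in Co and 0 in W (edgeR, with 39, 20, 13, 8 and 5 at an unadjusted p under 0.05). In the same fit 7.12% of all genes tested passed in DU, 0.416% in Al, 0.12% in Pb, 0.0063% in Co and 0% in W, with 22.5%, 8.78%, 8.33%, 8.83% and 8.42% at an unadjusted p under 0.05.

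Lead pellets went with the largest differences. All 73 genes rose in the Pb kidneys against Ta, where 24.5% of all genes tested rose. The median change of the 73 was 1.10 on the log2 scale, a 2.15-fold difference, beside a median of -0.07 for all genes tested. The changes ran from 0.67 for Rpl17 to 2.59 for Rpl38. For 72 of the 73 genes every Pb library lay above every Ta library, against 13% of all genes tested; Rpl17 was the exception.

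Rpl38, a small protein of the large subunit whose loss in mice disturbs the patterning of the skeleton, showed the largest change. Its level in the Ta kidneys was between 42.4 and 73.5 CPM with a median of 49.2, and in the Pb kidneys between 214 and 525 with a median of 293. The groups were far apart, and Pb replicate 4 was the highest library. The difference was 2.59 ± 0.20 on the log2 scale (SE, adjusted p = 4.69e-14, edgeR, higher in 7 of 7 Pb libraries).

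Rps28 followed, with 35.5 to 53.0 CPM (median 46.6) in Ta and 168 to 420 CPM (median 235) in Pb. No Pb library came near the Ta range. It rose by 2.49 ± 0.18 in log2 units (SE; edgeR adjusted p = 1.04e-14). Rps29, a zinc-binding protein of the small-subunit head, had 133.7 to 178 CPM (median 155) in Ta and 427 to 1280 CPM (median 565) in Pb. The Pb libraries were spread widely, with replicate 4 at the top, and none met the Ta range. Rps29 rose by 2.16 ± 0.21 on the log2 scale.

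Rps21, of the small subunit, rose by 2.24 ± 0.17, from a Ta median of 64.4 CPM to a Pb median of 269 CPM. Rpl41, the shortest of the ribosomal proteins and a bridge between the subunits, rose by 1.88 ± 0.14, from a Ta median of 235 CPM to a Pb median of 753 CPM. Rps27, another zinc-binding small-subunit protein, rose by 1.70 ± 0.16, and Rpl39, which lines the exit tunnel, by 1.58 ± 0.17. Rpl37 rose by 2.26 ± 0.34, but its row held only 1.01 ± 0.46 CPM (SD, n = 8) in Ta and 4.86 ± 1.51 CPM (SD, n = 7) in Pb, so its value rests on few counts.

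**Figure D2:**
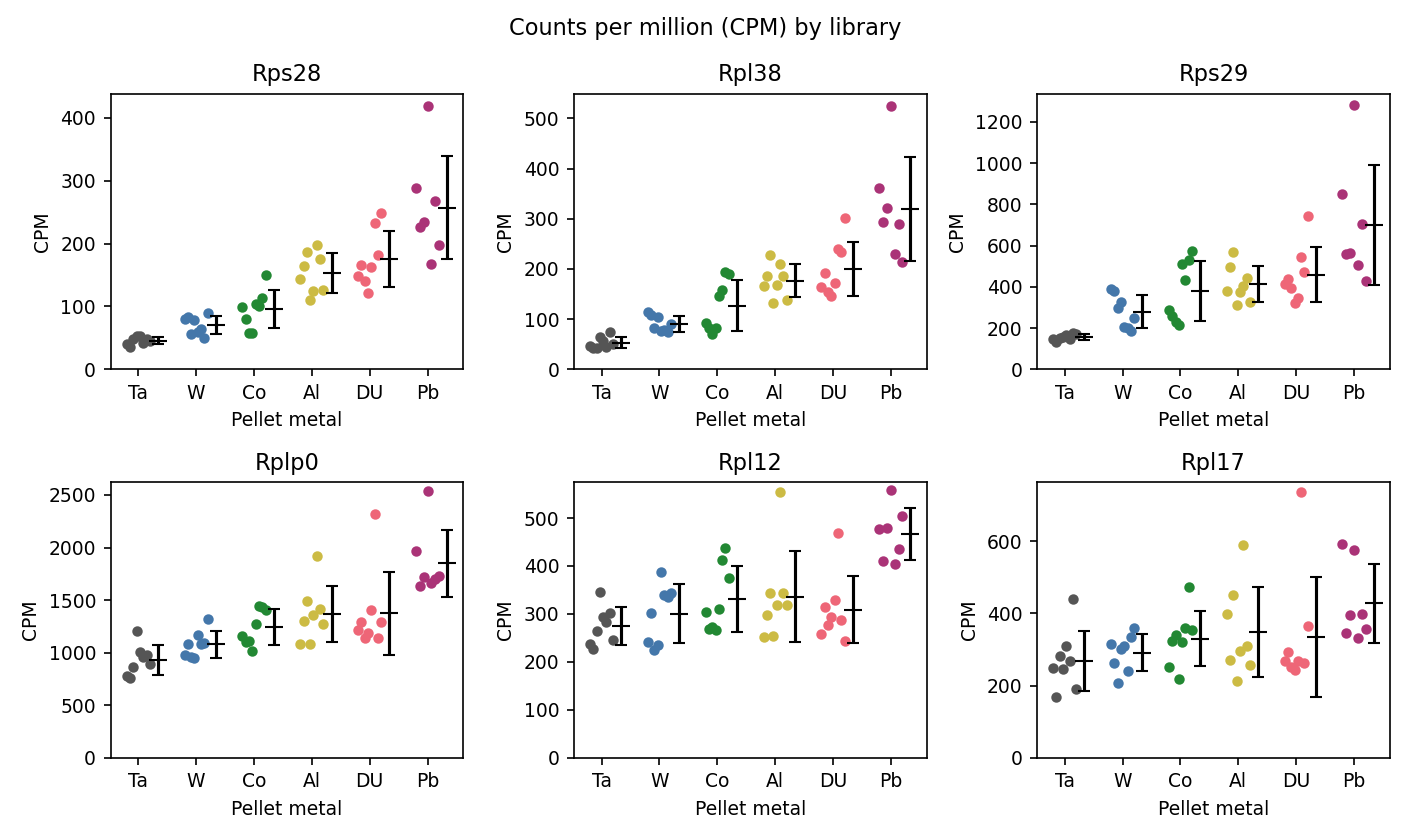
TMM-scaled CPM of 6 genes in each library by pellet metal, with group means and SD. Rps28, Rpl38 and Rps29 separate Pb from Ta completely; Rplp0 does so by less; Rpl12 is clear of Ta in Pb alone; and Rpl17 overlaps between all groups, with DU replicate 6 at 735 CPM.

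At the other end, the smallest changes in Pb were still past the test. Rpl10a, a protein of the mobile L1 stalk, rose by 0.71 ± 0.12, and Rpl29 by 0.75 ± 0.10. Rpl6 rose by 0.79 ± 0.12, Rpl8, a core protein near the catalytic site, by 0.80 ± 0.10, and Rps4x by 0.80 ± 0.12. Rpl17 had 168 to 440 CPM (median 259) in Ta and 332 to 592 CPM (median 395) in Pb. Its groups overlapped, with only 2 of 7 Pb libraries above every Ta library, and it rose by 0.67 ± 0.21 (SE, adjusted p = 0.00664, edgeR).

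By place in the ribosome, the Pb differences were spread over all parts. The 29 small-subunit genes had a median log2 fold change of 1.18 and the 44 large-subunit genes one of 1.09. The 13 genes of the small-subunit head that were tested had a median of 1.20. Within the stalk, which recruits the elongation factors, Rplp1 rose by 1.53 ± 0.15, Rplp2 by 1.20 ± 0.13 and Rplp0, the protein on which the other two are mounted, by 0.99 ± 0.13. Rpl12, at the stalk base, rose by 0.76 ± 0.14. The 4 neighbours in this structure thus spanned 0.76 to 1.53.

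Rpl5 and Rpl11 carry 5S ribosomal RNA into the large subunit and, when free, bind the p53 regulator Mdm2. Rpl5 rose in Pb by 0.94 ± 0.11, from a Ta range of 457 to 657 CPM to a Pb range of 845 to 1353 CPM. Rpl11 rose by 1.06 ± 0.12. The 9 genes at the exit tunnel had a median of 1.17, with Rpl22, an RNA-binding protein of the tunnel region, at 1.30 ± 0.12, and Rpl4, which reaches into the tunnel, at 0.85 ± 0.11.

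Rps6, the small-subunit protein that S6 kinase phosphorylates, rose by 0.83 ± 0.13. Rpsa, also known as the laminin receptor precursor, rose by 0.94 ± 0.11, with 678 to 991 CPM in Ta and 1354 to 2091 CPM in Pb. Rps14, at the platform of the small subunit, rose by 1.19 ± 0.10. Rps27a, made as a fusion with ubiquitin, rose by 1.09 ± 0.15. Rpl7, Rpl7a, Rpl13a and Rps2 lay in between, with rises of 1.05, 0.85, 1.21 and 0.94.

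**Figure D3:**
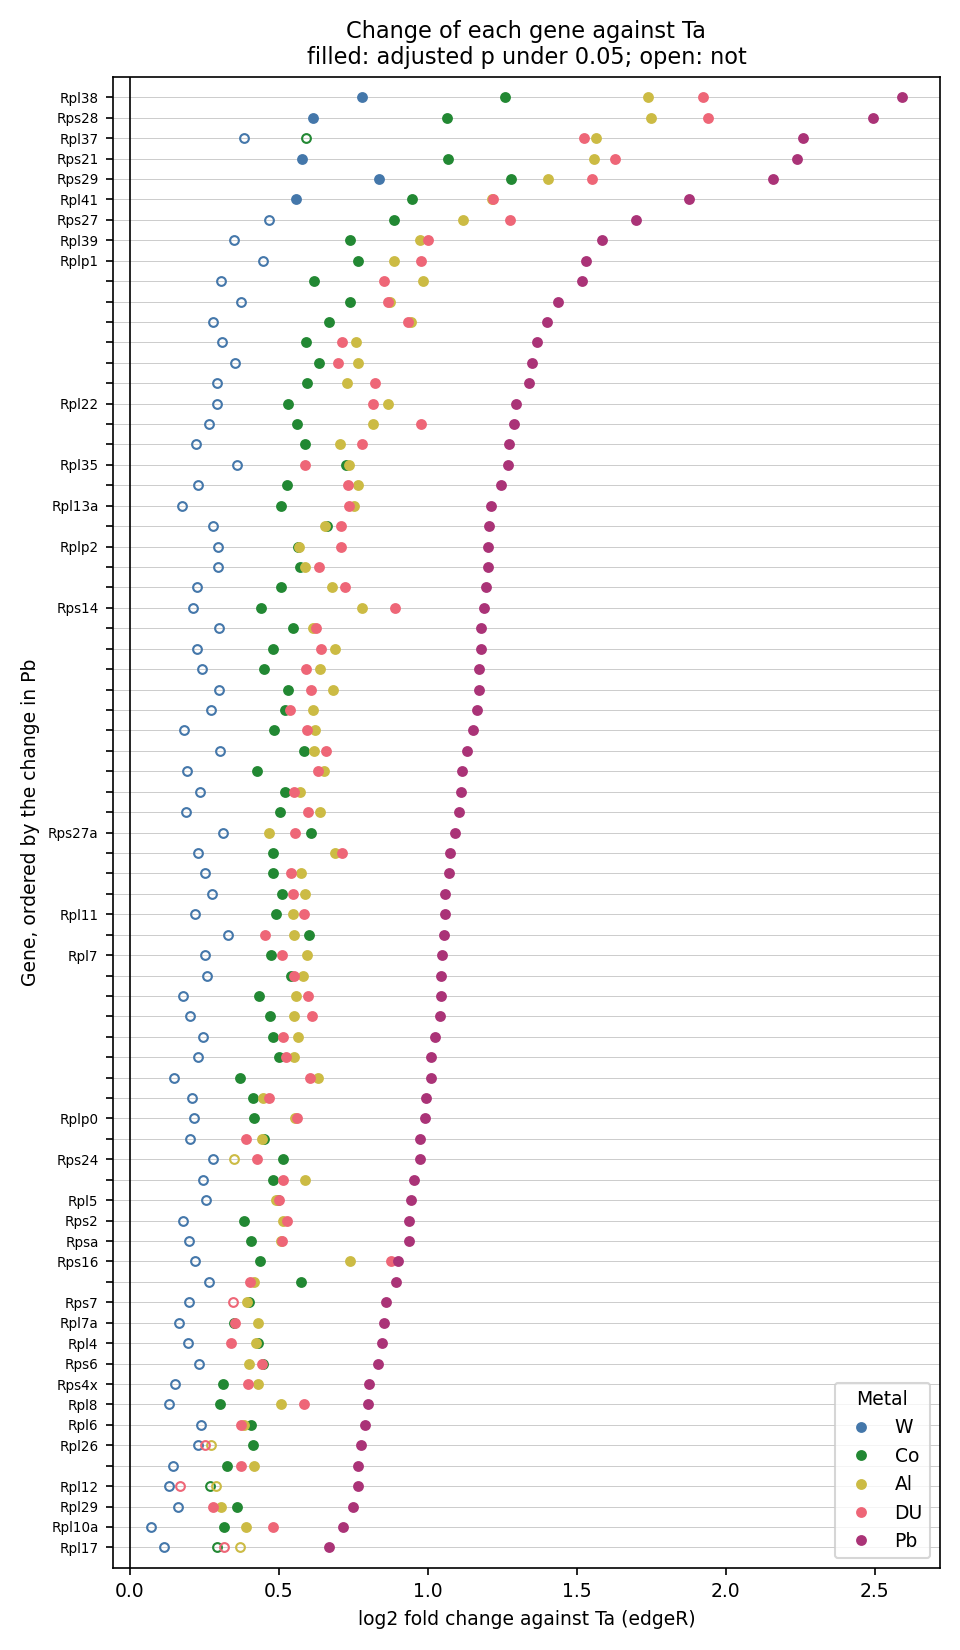
Log2 fold change against Ta (edgeR) of 72 of the 73 genes in W, Co, Al, DU and Pb, ordered by the change in Pb (1 gene that is not reported is not drawn), with names on the genes described in the text. The changes in Pb run from 0.67 (Rpl17) to 2.59 (Rpl38), and Rpl38, Rps28, Rps21 and Rps29 are among the 5 largest of the plotted changes in each of the other metals.

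Cobalt pellets went with smaller rises. In the Co kidneys 70 of 73 genes rose, against 13.6% of all genes tested, with a median change of 0.51 (1.42-fold) beside -0.07 for all genes. Every Co library lay above every Ta library for 19 genes, against 2.07% of all genes tested. Rps29 changed most, by 1.28 ± 0.20, followed by Rpl38 (1.26 ± 0.19), Rps21 (1.07 ± 0.16) and Rps28 (1.06 ± 0.17). Rpl37 (0.59 ± 0.33), Rpl17 (0.29 ± 0.20) and Rpl12 (0.27 ± 0.14) did not pass.

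The Co kidneys were not alike. Replicates 1 to 4 had a mean log2 CPM of the 73 genes between 8.19 and 8.41, and replicates 5 to 8 one between 8.603 and 8.79. Rps29 was at 216 to 286 CPM in the first 4 and at 431 to 575 CPM in the others, so neither measure overlapped between them. The labels do not say what the numbers stand for, and what separates them was not tested. Leaving out Co replicate 6 gave 63 genes in place of 70. Rpl10a, Rps2 and Rps4x lost the call without Co replicate 6, 7 or 8 and without Ta replicate 2, and some of them without Co replicate 5 or Ta replicate 1 or 7, with adjusted p up to 0.0941 for Rpl10a.

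In the Al kidneys 69 of 73 genes rose, against 12.8% of all genes tested, with a median change of 0.61 (1.53-fold) beside -0.04 for all genes. No overlap with Ta was seen for 34 genes, against 3.49% of all genes tested. Rps28 had 110 to 197 CPM (median 154) in Al, and every Al library was above the highest Ta library. It rose by 1.75 ± 0.17 (adjusted p = 6.19e-10, edgeR), Rpl38 by 1.74 ± 0.19, Rps21 by 1.56 ± 0.16 and Rpl37 by 1.56 ± 0.33. Rpl17 (0.37 ± 0.20), Rps24 (0.35 ± 0.14), Rpl12 (0.29 ± 0.14) and Rpl26 (0.27 ± 0.13) did not pass; Rps24, Rpl12 and Rpl26 are named here because they are exceptions seen in the results. Al replicate 6 held the highest value for 63 of the 73 genes, and 64 genes passed without it. Rpl29 (0.31 ± 0.10) and Rpl6 (0.38 ± 0.12) lost the call without it (adjusted p = 0.0604 and 0.0722, edgeR).

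In the DU kidneys 69 of 73 genes rose, against 7.89% of all genes tested, with a median change of 0.60 (1.51-fold) beside -0.01 for all genes. No overlap with Ta was seen for 54 genes, against 2.02% of all genes tested. Rps28 was at 121.7 to 250 CPM (median 165) in DU and rose by 1.94 ± 0.18 (adjusted p = 6.84e-11, edgeR). Rpl38 rose by 1.92 ± 0.19, Rps21 by 1.63 ± 0.16, Rps29 by 1.55 ± 0.21 and Rps27 by 1.28 ± 0.16. Rps14 rose by 0.89 ± 0.10, with all 8 DU libraries above every Ta library. Without DU replicate 6 the changes were 1.90 ± 0.18 for Rps28, 1.91 ± 0.20 for Rpl38, 1.55 ± 0.16 for Rps21, 1.55 ± 0.21 for Rps29, 1.22 ± 0.16 for Rps27 and 0.87 ± 0.10 for Rps14.

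Rps7 (0.35 ± 0.13), Rpl17 (0.32 ± 0.20), Rpl26 (0.25 ± 0.13) and Rpl12 (0.17 ± 0.14) did not pass in DU. Replicate 6, the library with few tubule transcripts, held the highest DU value for 68 of the 73 genes. Without it 63 genes passed with a median change of 0.55, and without replicates 5 and 6 together 61 passed. Rpl4 and Rpl6, which rose by 0.34 ± 0.11 and 0.37 ± 0.12, lost the call without replicate 6 (adjusted p = 0.0663 and 0.0675, edgeR). Rpl29 (0.28 ± 0.10) lost it without DU replicate 2, 6 or 8 or Ta replicate 1, 2 or 6, with adjusted p up to 0.0751.

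Tungsten pellets went with the smallest differences from Ta, and few genes passed. In the W kidneys 5 of 73 genes rose, against 1.42% of all genes tested, while the median change was 0.24 (1.18-fold) beside -0.03 for all genes. At an unadjusted p under 0.05 there were 39, against 21.7% of all genes tested. The 5 were Rps29 (0.84 ± 0.20), Rpl38 (0.78 ± 0.19), Rps28 (0.61 ± 0.17), Rps21 (0.58 ± 0.16) and Rpl41 (0.56 ± 0.13), with adjusted p between 0.0317 and 0.0478 (edgeR). For 4 of them, all but Rps28, every W library lay above every Ta library, against 0.366% of all genes tested.

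Rpl41 was at 291 to 430 CPM (median 336) in W and 189 to 252 CPM (median 235) in Ta, with a clear gap between the groups. Rps29 was at 187 to 388 CPM in W, from just above the Ta maximum of 178 CPM upwards. For Rpl38 the lowest W library and the highest Ta library were both at 73.5 CPM. All 5 calls were lost without W replicate 5 and also without W replicate 8 (0 genes, edgeR). Without Ta replicate 2, Ta replicate 6, W replicate 6 or W replicate 7, 3 genes passed. With the W and Ta libraries alone 14 passed, where 277 of the 14461 genes tested did.

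Between the other metals, Pb stood above each of them. Against W all 73 genes were higher in Pb, where 17.5% of all genes tested were higher, with a median of 0.86. Against Co 72 were higher, where 11.3% of all genes were, with a median of 0.59. Against Al 68 were higher, where 7.98% of all genes were, with a median of 0.49. Against DU 67 were higher, where 23.7% of all genes were, with a median of 0.50. Without Pb replicate 4, which held the highest Pb value for 72 of the 73 genes, 52 genes passed against Al and 59 against DU. The balance covariate ended nearly all of these calls: 1 gene passed against W, 1 against Co, 0 against Al and 0 against DU (edgeR), where 0.195%, 0.126%, 0% and 1.26% of all genes tested passed. At an unadjusted p under 0.05 there were 18, 16, 2 and 18, where 1434, 1544, 593 and 3093 of 15868 genes tested were. The median against DU turned to -0.18, with 1 of the 73 estimates above 0, and without DU replicate 6 it was -0.12. The lowest Pb balance (1.07) lay above the highest in W (0.54), Co (0.97) and DU (0.58). The fit with the covariate thus sets Pb against these metals at balances they do not share. The metal and the balance cannot be told apart there.

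Rpl38 was above Co by 1.33 ± 0.19, above Al by 0.85 ± 0.19 and above DU by 0.67 ± 0.19. Rpl12, named because it passed against Ta in Pb alone, was at 404 to 558 CPM in Pb, and its Pb level was above that of W (0.63 ± 0.14), DU (0.59 ± 0.14), Co (0.50 ± 0.14) and Al (0.48 ± 0.14) past the test. Rps16, a protein of the small-subunit head and named because it was the gene for which Pb and DU were closest, was at 562 ± 104.2 CPM (SD, n = 7) in Pb and 552 ± 113 CPM (SD, n = 8) in DU. Its difference was 0.03 ± 0.11 (SE, adjusted p = 0.872, edgeR), although it was above Ta by 0.90 ± 0.11 and 0.88 ± 0.11. Every Pb library was above every library of the other group for 72 genes in W (6.26% of all genes tested), 40 in Co (3.18%), 11 in DU (9.53%) and 1 in Al (1.63%).

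The middle of the order was not resolved. Co and W differed for 0 of the 73 genes (edgeR; 54 at an unadjusted p under 0.05, where 9.2% of all genes tested were, 0 by DESeq2 and 0 by limma voom), and 0 of all 15868 genes passed in that comparison. Al and Co differed for 0 (15 unadjusted, against 7.54% of all genes tested, 0 by DESeq2, 3 by limma voom), again with 0 of all genes tested. DU and Al differed for 0 (0 unadjusted, 0 by DESeq2 and 0 by limma voom), although 12.7% of all genes tested differed between those groups, and 28.4% at an unadjusted p under 0.05. With the balance covariate 18 of the 73 were higher in DU than in Al. Of all 15868 genes tested 420 were higher and 656 lower (6.78% in either direction). All 73 estimates were above 0 and 55 passed unadjusted, where 3731 of the 15868 genes tested did. Without DU replicate 6 as well, 9 of the 73 were higher, where 63 of 15833 genes tested were. The DU and Al differences of the 73 genes ran from -0.15 (Rpl35, SE 0.12) to 0.19 (Rps28, SE 0.17). These comparisons of neighbours were added after the order was seen.

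Proteins tied to the ribosome by fusion or binding moved in the same direction. Fau, which encodes a ribosomal protein fused to a relative of ubiquitin, rose in Pb by 1.01 ± 0.10. Rack1, a scaffold on the small subunit, rose by 0.91 ± 0.12. Both passed in Co, Al, DU and Pb, and in W they stood at 0.25 and 0.24 without passing.

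For other genes of translation the shares are read against the 24.5% of all genes tested that were higher in Pb and the 29.2% that were lower. In Pb 20 of 38 initiation factor genes were higher and 10 lower (median 0.27), with Eif1 up by 0.91 ± 0.08 and Eif6, which keeps free large subunits apart from small ones, up by 0.84 ± 0.08. Of 16 elongation and termination factor genes 8 were higher and 3 lower, with Eef1b2 up by 1.03 ± 0.12 and the release factor Gspt1 at -0.54 ± 0.07. A list of 21 genes outside the family, whose messages are known to carry a TOP tract, had 13 higher and 2 lower (median 0.44). Some of them are also in other lists here. Of 100 ribosome biogenesis genes 52 were higher and 10 lower (median 0.29), with Nhp2, a protein of small nucleolar particles, up by 1.29 ± 0.12 and the nucleolar helicase Ddx21 at -1.35 ± 0.14.

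Among 24 growth regulators 6 were higher and 12 lower in Pb (median -0.29), so the share that was higher was near that of all genes tested. Larp1, the protein that binds TOP messages when mTOR is inactive, fell by 0.78 with an SE of 0.10, and Rragc, an mTOR-activating GTPase, fell by 0.65 with an SE of 0.09. In DU 8 of the 38 initiation factor genes were higher and 4 lower, and 15 of the 100 biogenesis genes were higher and 2 lower, where 7.89% of all genes tested were higher and 7.39% lower. With the start windows, the Pb median was 1.11 for the 44 genes with a pyrimidine run and 1.06 for the 14 without.

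**Figure D4:**
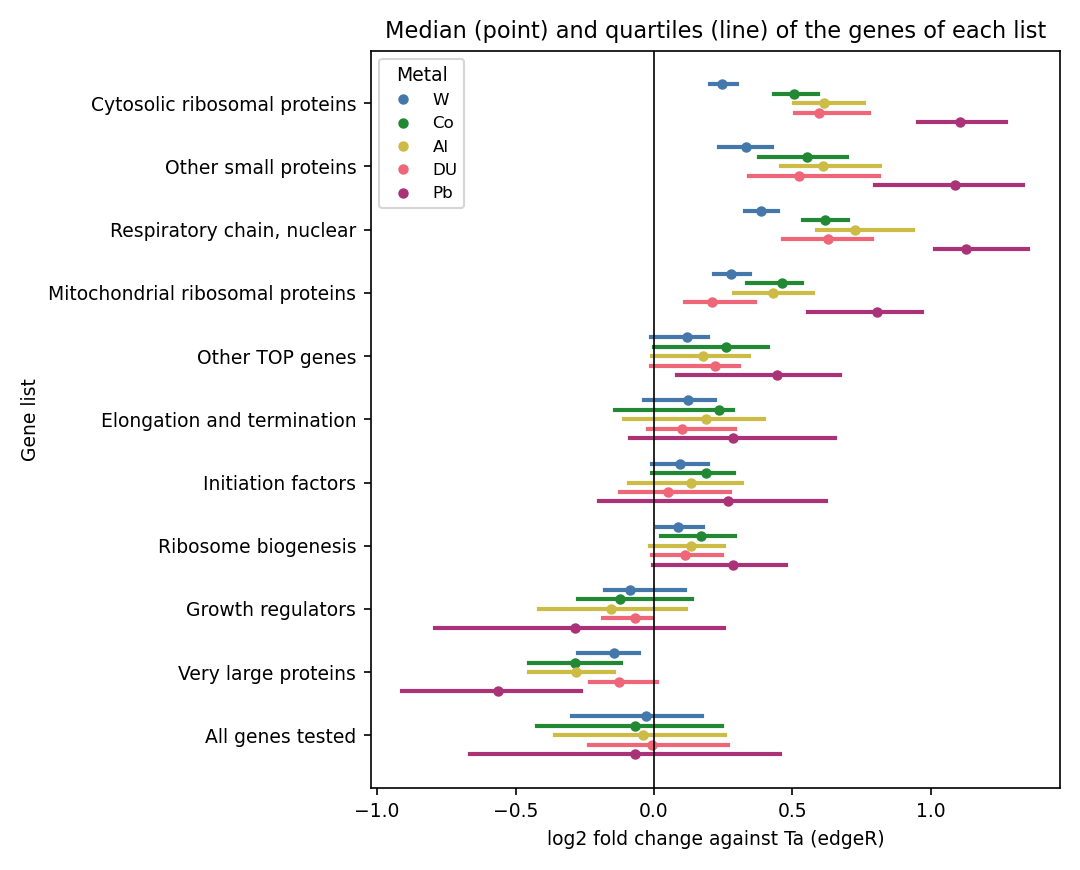
Median (point) and quartiles (line) of the log2 fold changes against Ta (edgeR) for the genes of each list, by pellet metal. Some genes are in several lists. The ribosomal protein genes reach a median of 1.10 in Pb, close to the lists of small proteins outside the ribosome (1.09) and small respiratory chain subunits (1.13), while very large proteins lie at -0.56.

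Genes of other small proteins were also higher, in lists that share some genes with each other and with those above. Of 80 tested genes of small proteins outside the cytosolic ribosome, such as Tomm7 of the mitochondrial import pore (2.11 ± 0.12 in Pb), 79 were higher in Pb and 1 did not pass, with a median of 1.09. Of 53 nuclear genes of small respiratory chain subunits 52 were higher and 1 did not pass, with a median of 1.13. The mitochondrial ribosome, a separate machine, had 70 of 75 genes higher and 1 lower in Pb, with a median of 0.81. Of 83 genes of very large proteins, such as the chromatin regulators Ncor1 (-0.91 ± 0.10) and Ep300 (-0.87 ± 0.10), 62 were lower in Pb and the others did not pass, with a median of -0.56. The same lists stood at 0.52, 0.63, 0.21 and -0.13 in DU, where the cytosolic ribosomal protein genes stood at 0.60.

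Of the 75 mitochondrial ribosomal protein genes 27 rose in DU, 63 in Al, 66 in Co and 11 in W. Among all genes tested 7.89%, 12.8%, 13.6% and 1.42% rose in these comparisons with Ta. Compared directly, 1110 of all 15868 genes tested were lower in DU than in Al past the test and 900 higher. Of the 75 mitochondrial genes 14 were lower and 0 higher, with a median of -0.19. Their mean log2 CPM in DU replicates 5 and 6 was 5.25 and 5.21, against at least 5.44 in the other DU libraries. The mean log2 CPM of the cytosolic genes minus that of the mitochondrial ones was 2.75 ± 0.21 (SD, n = 8) in Ta, 2.75 ± 0.11 (n = 8) in W, 2.85 ± 0.14 (n = 8) in Co, 2.98 ± 0.18 (n = 8) in Al, 3.15 ± 0.15 (n = 7) in Pb and 3.20 ± 0.32 (n = 8) in DU. DU replicate 6 was at 3.93, and without it the DU libraries stood at 3.10 ± 0.14 (n = 7). The Ta libraries ran up to 3.19, and 3 of 8 DU, 2 of 7 Pb and 1 of 8 Al libraries lay above that. That top value was Ta replicate 4, and the next Ta library, replicate 6, was at 2.86. The lowest library was at 2.96 in DU, 2.94 in Pb, 2.83 in Al, 2.66 in Co and 2.63 in W. No test was made of these scores.

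A balance of small over very large proteins was computed for each library from the genes outside the ribosome, as the mean log2 CPM of the 80 minus that of the 83. It lay between -0.72 and 0.08 in Ta, -0.25 and 0.54 in W, 0.10 and 0.97 in Co, 0.07 and 1.22 in Al, 0.14 and 0.58 in DU, and 1.07 and 2.14 in Pb. Pb replicate 4 had the highest balance and the highest mean of the 73 genes. The Co libraries split on it as they did on the ribosomal protein genes, with 0.10 to 0.30 in replicates 1 to 4 and 0.79 to 0.97 in replicates 5 to 8. The W libraries split on it at the same numbers, with -0.25 to 0.05 and 0.24 to 0.54, while their means of the 73 genes overlapped (8.00 to 8.27 and 8.18 to 8.49). In Ta, Al, Pb and DU the balances of the lower and higher numbers overlapped.

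With this balance as a covariate in the edgeR fit, the counts of genes past the test fell as given above, and the medians of the 73 genes became 0.18 in DU, 0.06 in Pb, -0.01 in Al, -0.04 in Co and -0.06 in W. Rps28 still passed in Pb (1.18 ± 0.27, SE, adjusted p = 0.0494, edgeR), in Al (1.01 ± 0.18, adjusted p = 0.00212) and in DU (1.43 ± 0.16, adjusted p = 7.5e-08). Rps21, Rpl38 and Rpl41 passed in Al and DU. In DU the genes that passed also included Rps14 (0.61), Rps29 (1.02), Rplp1 (0.45) and Rpl22 (0.44). Without DU replicate 6 in this fit, 26 of the 73 genes passed in DU with a median of 0.16, where 1250 of 15833 genes tested passed. Rps28 then stood at 1.41, Rpl38 at 1.35 and Rps14 at 0.59. Because the balance itself differs between the metals, the metal and the balance cannot be told apart in the part of the change that the covariate takes up. The Pb and Ta libraries shared no range of balance.

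**Figure D5:**
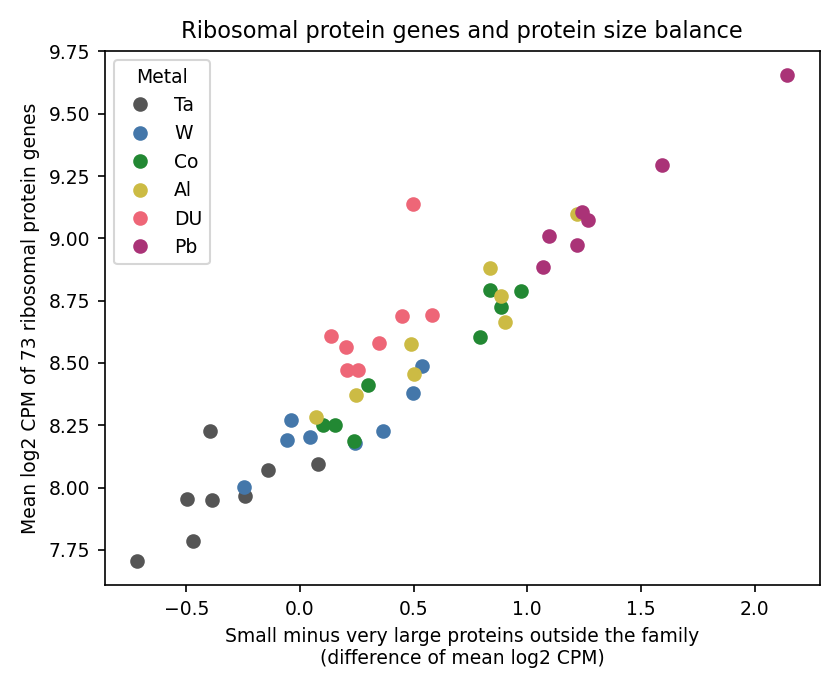
Mean log2 CPM of the 73 genes against the balance of small over very large proteins outside the ribosome, 1 point per library, coloured by pellet metal. Ta libraries lie at balances of -0.72 to 0.08 and Pb libraries at 1.07 to 2.14, and DU replicate 6 sits high for its balance of 0.50.

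Cell type markers also moved with the groups. In Pb 6 of 6 endothelial markers (median -2.06), 5 of 5 podocyte markers (median -2.47), 5 of 5 fibroblast and smooth muscle markers (median -1.65), 6 of 9 proximal tubule markers (median -0.79) and 4 of 7 macrophage and dendritic markers (median -0.99) were lower than in Ta. In Pb 2 of 3 adipocyte markers were higher (median 1.33) and 2 of 4 erythroid markers lower (median -0.64). Of all genes tested 24.5% were higher and 29.2% lower in Pb. Ta replicate 4 had the highest Ta mean log2 CPM of the macrophage and dendritic markers, 6.45 against a Ta median of 4.41. On that score 3 of 7 Pb libraries lay below every Ta library. On the endothelial, podocyte, fibroblast and smooth muscle, and proximal tubule scores 7 of 7 did. No marker count was made without Ta replicate 4. In Al 5 of 6 endothelial, 5 of 5 podocyte, 3 of 5 fibroblast and smooth muscle, 3 of 9 proximal tubule and 1 of 7 macrophage and dendritic markers were lower, where 12.4% of all genes tested were. In Co 2 of 6 endothelial, 1 of 5 podocyte, 5 of 5 fibroblast and smooth muscle, 2 of 7 macrophage and dendritic and 1 of 2 thick limb markers were lower, where 12.2% of all genes tested were. In the adipocyte list 1 marker of 3 was higher in each of Al, Co and DU, where 12.8%, 13.6% and 7.89% of all genes tested were. In W 2 of 5 fibroblast and smooth muscle markers were lower (median -0.98), where 0.366% of all genes tested were. The podocyte (median -0.95), macrophage and dendritic (median -0.89) and endothelial (median -0.60) markers did not pass in W, with 4 of 5, 5 of 7 and 2 of 6 lower at an unadjusted p under 0.05.

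The DU kidneys differed from Ta in other markers. There 2 of 4 erythroid markers were higher (median 0.66; 4 of 4 at an unadjusted p under 0.05), and their mean log2 CPM was 7.49 ± 0.50 (SD, n = 8) against 6.75 ± 0.34 (n = 8) in Ta, with 5 of 8 DU libraries above every Ta library. Of the thick limb markers 1 of 2 was lower, and of the collecting duct markers 1 of 4. All marker counts for DU include replicate 6, which was low in Umod (484 CPM, DU median 2580) and Aqp2. They were not made without it. Among all genes tested 7.89% were higher and 7.39% lower in DU. Of the endothelial (median 0.03), podocyte (median -0.43), macrophage and dendritic (median 0.59) and fibroblast and smooth muscle markers (median 0.47) 0 passed the edgeR test in DU, with 1 endothelial marker lower and 1 fibroblast and smooth muscle marker higher at an unadjusted p under 0.05. The endothelial level, as a mean log2 CPM over the markers, ran from 4.65 to 5.16 in Ta, 2.21 to 3.21 in Pb and 4.39 to 5.40 in DU. In W it was 4.63 to 5.20 in replicates 1 to 4 and 3.14 to 3.44 in replicates 5 to 8, and in Co 3.74 to 5.18 and 2.42 to 3.65. With the balance covariate 0 of the endothelial (median 0.06), podocyte (-0.22) and fibroblast and smooth muscle markers (-0.39) passed in Pb. In DU 3 of 6 endothelial (median 1.15), 1 of 5 fibroblast and smooth muscle and 1 of 4 erythroid markers were then higher. So were 1 of 9 proximal tubule and 1 of 3 adipocyte markers, and 640 of all 15868 genes tested. The part of cell makeup in these results was not tested.

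Most of the tested copies outside the naming rule were higher in Pb. Of 29 such rows 17 were tested, and in Pb 14 were higher and 1 lower. The 73 genes hold no Rps9, Rps19 or Rpl35a, while Rps9l1, Rps19l2 and Rpl35al1 are among the rows left out. Rps9l1 averaged 281 CPM in Ta and 635 CPM in Pb, Rps19l2 262 and 681 CPM, and Rpl35al1 32.3 and 94.4 CPM. Rps27l, a p53-induced relative of Rps27, rose by 1.49 ± 0.12, and Rpl22l1, the relative of Rpl22, rose by 1.59 on the log2 scale, from 27.8 ± 5.9 CPM (SD, n = 8) in Ta to 83.98 ± 25.8 CPM (SD, n = 7) in Pb. The 1 lower row was Rpl7l1 (-0.34), at 38.9 ± 3.9 CPM in Ta and 30.7 ± 4.1 CPM in Pb. RefSeq lists 1191 rat symbols that start with Rpl or Rps, of which 883 are pseudogenes. Reads that match a gene and a copy equally could have been split or dropped, so the level of any one of the 73 rows is uncertain to that extent, Rpl37 with its few counts above all.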

How the data were processed

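RNA from whole kidney was sequenced in 47 libraries. The authors deposited raw read counts per gene and library; per the submitters' processing notes the reads were processed with STAR 2.7.2a and featureCounts from Subread 1.6.4 on mRatBN7.2. The annotation, the strand setting and the handling of reads with several matches are not given in the sources used here. The deposited counts break 5 long genes over several lines, which leaves 29 lines that name no gene; these hold 0.0317% of the counts and were left out.

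Counts were fitted in R 4.3.3 with edgeR 4.0.16: filterByExpr by group, TMM factors, and a 2-sided quasi-likelihood F test of all 6 groups together, with Benjamini-Hochberg adjustment over the 15868 genes tested and a threshold of 0.05. The SE of a log2 fold change is its size divided by the square root of F. Log2 CPM used a prior count of 2. Library scores, shares and gene lists were described by values and counts, with no test. Alternatives were DESeq2 1.42.0, limma 3.58.1 (voom with quality weights), RLE factors, scaling without the 73 genes and the 13 mitochondrially encoded genes, 2 other filters, the balance covariate (also without DU replicate 6), the replicate number as a block, the compared groups alone, and leaving out each library. The fitting scripts were tested on simulated counts. The closest of 161 pairs of libraries within groups had a chi-square of 15.7 per degree of freedom, so each library was counted once.

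Named genes were, per comparison with Ta, the 6 largest and 3 smallest changes past the test and the 3 smallest p; the 6 smallest p over all groups; every gene past the test in W; the genes with the 5 highest and 3 lowest means; Rplp0, Rplp1, Rplp2, Rpl5, Rpl11, Rps27a, Rpsa and Rps6; and up to 3 genes of each other list. Rpl12, Rpl26, Rpl35, Rps7, Rps16 and Rps24 were singled out after their values were seen. A gene named by the rule and a gene of another list are not reported here. The members and lists were chosen with earlier results of these data known. Start windows came from RefSeq on GRCr8, matched by symbol, and the pyrimidine rule was set after the windows were seen. A comparison with protein length was not run.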

Additional observations from a re-analysis of the deposited data

Results flagged for a closer look

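Among 192 groups of 7 or 8 values, for 30 named genes and 2 library scores, 33 held a value far from its group: the gap to the next library was larger than Dixon's 95% limit for a share of the group's range. Chance alone gives about 1 in 20 for a single group. The groups share the same libraries and their genes move together, so 33 of 192 cannot be set against that rate. All 33 were the highest value of their group, and they came from few libraries.

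DU replicate 6 gave 18 of them. Its levels in CPM were Rpl10a 475, Rpl17 735, Rpl22 166, Rpl4 1212, Rpl5 947, Rpl6 799, Rpl7a 1063, Rpl8 777, Rplp0 2318, Rplp2 551, Rps2 1433, Rps21 292, Rps27a 740, Rps4x 723, Rps6 1028 and Rpsa 1473. In this library the 73 genes took 5.73% of the counts, against 3.31% to 4.09% in the other DU libraries, and their mean log2 CPM was 9.14, against at most 8.69. Pb replicate 4 gave 9, with levels in CPM of Rpl39 199.8, Rpl4 1422, Rpl41 1329, Rpl6 941, Rpl7a 1245, Rpl8 779, Rplp0 2534, Rplp2 747 and Rps6 1186. It also had the highest balance of small over very large proteins of all libraries, and the part of that balance was not tested.

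The others came from 3 libraries. Ta replicate 4 had Rpl6 530 and Rps4x 543 CPM and a share of 3.23% of the counts, against at most 2.60% in the other Ta libraries. Al replicate 6 had Rpl6 819 and Rps2 1559 CPM. W replicate 8 had Rpl41 430 CPM, the next W library being at 345 CPM.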

How the results depend on the processing

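The counts of the 73 genes past the test in Pb, DU, Al and Co stayed within 1.5 times under DESeq2, limma voom, RLE factors, scaling without the members, both filters, the compared groups alone and each left-out library; the balance covariate changed them. For W, 8 genes passed with DESeq2, 10 with limma voom, 3 with no filter, 14 with the compared groups alone, 0 without Ta replicates 4 and 6 together (added after seeing the data), and 0 to 7 when each library was left out. For Al against Co limma voom gave 3. Leaving out 1 library gave 63 to 70 genes in Co, 64 to 72 in Al, 63 to 70 in DU and 73 to 73 in Pb, and for Pb 72 to 73 against W, 65 to 72 against Co, 52 to 70 against Al and 59 to 72 against DU.

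With the balance covariate, the counts against Ta were 25 in DU, 4 in Al, 1 in Pb, 0 in Co and 0 in W; for Pb, 1 against W, 1 against Co, 0 against Al and 0 against DU; 44 over the 6 groups, where 19% of all genes tested passed; 1 for Al against Co and 18, all higher in DU, for DU against Al. At an unadjusted p under 0.05 edgeR gave 2 genes for Pb against Al and 18 for Pb against DU under the covariate. Of all 15868 genes tested, 593 and 3093 were at that level. The median change of the 73 genes became 0.10 for Pb against W, 0.09 against Co, 0.04 against Al and -0.18 against DU. Against Ta, all 73 estimates were above 0 for every metal without the covariate. With it, 62 stayed above 0 for DU, 41 for Pb, 35 for Al, 29 for Co and 15 for W. The list that follows is limited to named genes past the test against Ta without the covariate. Genes that did not pass then, as most did not for W, are left out even where their sign turned. These named genes changed sign, none past the test: in Co Rpl10a -0.12, Rpl11 -0.097, Rpl13a -0.054, Rpl29 -0.10, Rpl4 -0.060, Rpl5 -0.035, Rpl6 -0.12, Rpl7a -0.098, Rpl8 -0.030, Rplp0 -0.096, Rplp2 -0.035, Rps2 -0.22, Rps27a -0.12, Rps4x -0.18, Rps6 -0.11 and Rpsa -0.11; in Al Rpl10a -0.093, Rpl11 -0.12, Rpl29 -0.22, Rpl4 -0.13, Rpl5 -0.11, Rpl6 -0.22, Rpl7a -0.081, Rplp0 -0.032, Rplp2 -0.098, Rps2 -0.20, Rps27a -0.34, Rps4x -0.13, Rps6 -0.21 and Rpsa -0.077; in Pb Rpl10a -0.14, Rpl11 -0.085, Rpl17 -0.79, Rpl29 -0.15, Rpl4 -0.087, Rpl5 -0.077, Rpl6 -0.22, Rpl7a -0.012, Rplp0 -0.012, Rps2 -0.26, Rps27a -0.29, Rps4x -0.15, Rps6 -0.23 and Rpsa -0.066; and in DU Rpl29 -0.074, Rpl4 -0.033 and Rpl6 -0.026. With the covariate and without DU replicate 6 (added after seeing the data), 26 genes passed in DU against Ta, 0 for Pb against DU and 9 for DU against Al. At an unadjusted p under 0.05 there were 41, 8 and 35. Of the 15833 genes tested in that fit, 1250, 5 and 375 passed, and 3546, 2161 and 2906 did so unadjusted. The signs given here for DU are again only those of named genes past the test without the covariate. They turned, none past the test, for Rpl29 -0.075, Rpl4 -0.072, Rpl6 -0.070, Rpl7a -0.036, Rps27a -0.028, Rps4x -0.0074 and Rps6 -0.034. The covariate differs between groups, so its effect and that of the metal cannot be told apart.

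With the replicate number as a block, 73 genes passed in Pb, 69 in DU, 69 in Al, 70 in Co and 4 in W; Rps28 lost its call in W. Over all genes tested, deviations of same-numbered libraries had a median correlation of 0.012 over 115 pairs, against -0.00074 for other pairs. Such a median cannot show whether the numbers mark something shared by some groups. The codes in the Pb sample titles skip a place between replicates 4 and 5. The later Pb numbers may therefore not line up with those of the other groups, in the block or in these pairs. On the balance, W and Co both split between replicates 1 to 4 and 5 to 8. All of the 73 genes but Rpl37 have ample counts; the width of the groups, not depth, limits what differences can be seen.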
